A study of Homo sapiens with 4 samples.

Results

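RAB GTPases are the largest branch of the RAS superfamily of small GTPases, and many of them have a close paralog in the human genome. The family is described here in 22Rv1 cells, a human prostate cancer line, with and without a CD276 knockout. Members were the rows of the deposited gene table whose name is RAB, a number, an optional letter and an optional digit. Of 71 such rows 8 are pseudogenes and were left out, which leaves 63 RAB genes of 57014 named rows. Names alone decided membership, while the family was put forward for description with earlier results of these data known. Each gene was placed by the compartment it is best known for, which gave 15 genes of the ER and Golgi, 7 of early endosomes, 9 of recycling endosomes, 9 of late endosomes, lysosomes and related organelles, 12 of secretory vesicles and 11 with other or unplaced roles. Many RABs act at more than one site, so this placement is a convention.

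A RAB protein is a membrane switch. In its GTP-bound form it sits on one kind of membrane and recruits effectors that bud, move, tether or fuse vesicles, and in its GDP-bound form it is pulled into the cytosol by a GDP dissociation inhibitor. Exchange factors switch it on, GTPase-activating proteins switch it off, and a prenyl group added by the RAB geranylgeranyl transferase anchors it. In the prostate epithelium, which secretes proteins such as prostate-specific antigen, this traffic serves both secretion and the turnover of surface receptors.

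Poly(A)-selected RNA was sequenced from 2 CD276 knockout libraries (replicates 1 and 3, sgCD276) and 2 control libraries (replicates 1 and 3, wild-type genotype, sgGFP), all grown in RPMI-1640 with fetal bovine serum. CD276 encodes the surface protein B7-H3. The sources used here do not say whether the knockout cells were 1 clone or a pool. The replicates are called biological without mention of separate cultures, so a p-value reflects only how far these libraries spread.

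Levels are normalised CPM, the usual counts scaled to a common library total, after scaling between libraries. Gene counts summed to 24437926 and 25802417 in the knockouts and to 23206271 and 20079050 in the controls, so 1 normalised CPM stood for 19.4 to 26.3 counts. Differences are given as log2 of the knockout level over the control level ± SE, and a gene is said to have risen or fallen where its p from the quasi-likelihood test of edgeR, with Benjamini-Hochberg adjustment across the 18043 genes tested, was under 0.05. CD276 itself had 23.6 and 26.2 normalised CPM in the knockouts, against 47.4 and 54.4 in the controls (-1.03 ± 0.16, edgeR adjusted p = 0.00561). The reduction is partial, and gene-level counts cannot reveal the edit itself. The 9 prostate epithelial markers summed to 3175 to 3937 normalised CPM in the knockouts and 3902 to 3983 in the controls. The markers of endothelium summed to at most 0.0773 and those of leukocytes to at most 2.13 in any library, with PECAM1, CDH5 and CD3E at 0 in all of them. The 3 fibroblast markers summed to 19.3 to 31.4 in the knockouts and 47.1 to 50.9 in the controls, nearly all of it COL1A1. Transcripts of the mitochondrial genome took 1.46% and 1.78% of counts in the knockouts and 5.84% and 6.15% in the controls. The part of these shifts in the RAB results was not tested.

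RAB transcripts were more often higher than lower in the knockouts. Of the 63 genes 57 passed the filter on low counts, and of these 19 rose, 0 fell and 38 did not pass the test. That is 33.3% of the RAB genes tested, against 9.87% of all genes tested and 12.2% of the 13799 nuclear protein-coding genes tested that rose. Of all genes 12.9% fell, and of the nuclear protein-coding genes 11.2%. At an unadjusted p under 0.05, edgeR gave 26 RAB genes higher and 5 lower, while DESeq2 and limma voom each called 19 higher and 0 lower at an adjusted p under 0.05. The rise reached 2-fold for 8 RAB genes, or 14% of those tested, against 2.46% of all genes and 2.79% of nuclear protein-coding genes. The median log2 fold change of the 57 was 0.36, beside -0.005 over all genes and 0.06 over nuclear protein-coding genes. Taken library by library against the controls, the median was 0.31 for knockout replicate 1 and 0.40 for knockout replicate 3. Both knockouts lay above both controls for 36 of the 57 (63.2%), against 31.8% of all genes and 36% of nuclear protein-coding genes. In bulk RNA, a change in every cell and a change in some of the cells cannot be told apart. These shares are descriptions of 1 family beside its background, and no test of the family as a whole was made.

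Leaving out 1 library moved the number of calls across the whole table. Such a fit sets 1 library against 2, takes all of its spread from the complete group and assumes that the lone library varies like it. Without knockout replicate 1, 30 RAB genes rose and 5 fell, with a family median of 0.42, beside 27.8% of nuclear protein-coding genes higher and 21.7% lower. Without knockout replicate 3, 33 rose and 6 fell, with a median of 0.39, beside 31.2% higher and 23% lower. Without control replicate 3 only 5 RAB genes rose (RAB6A, RAB14, RAB23, RAB39A and RAB3D), with a median of 0.41, beside 1.02% of nuclear protein-coding genes. Without control replicate 1 none did (0 in edgeR, 13 higher and 0 lower at an unadjusted p under 0.05; DESeq2 was not run on 3 libraries), with a median of 0.29, beside 0.311%. Since the whole table moved as well, these counts can be read only beside those shares, and the difference from them was not tested.

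**Figure D1:**
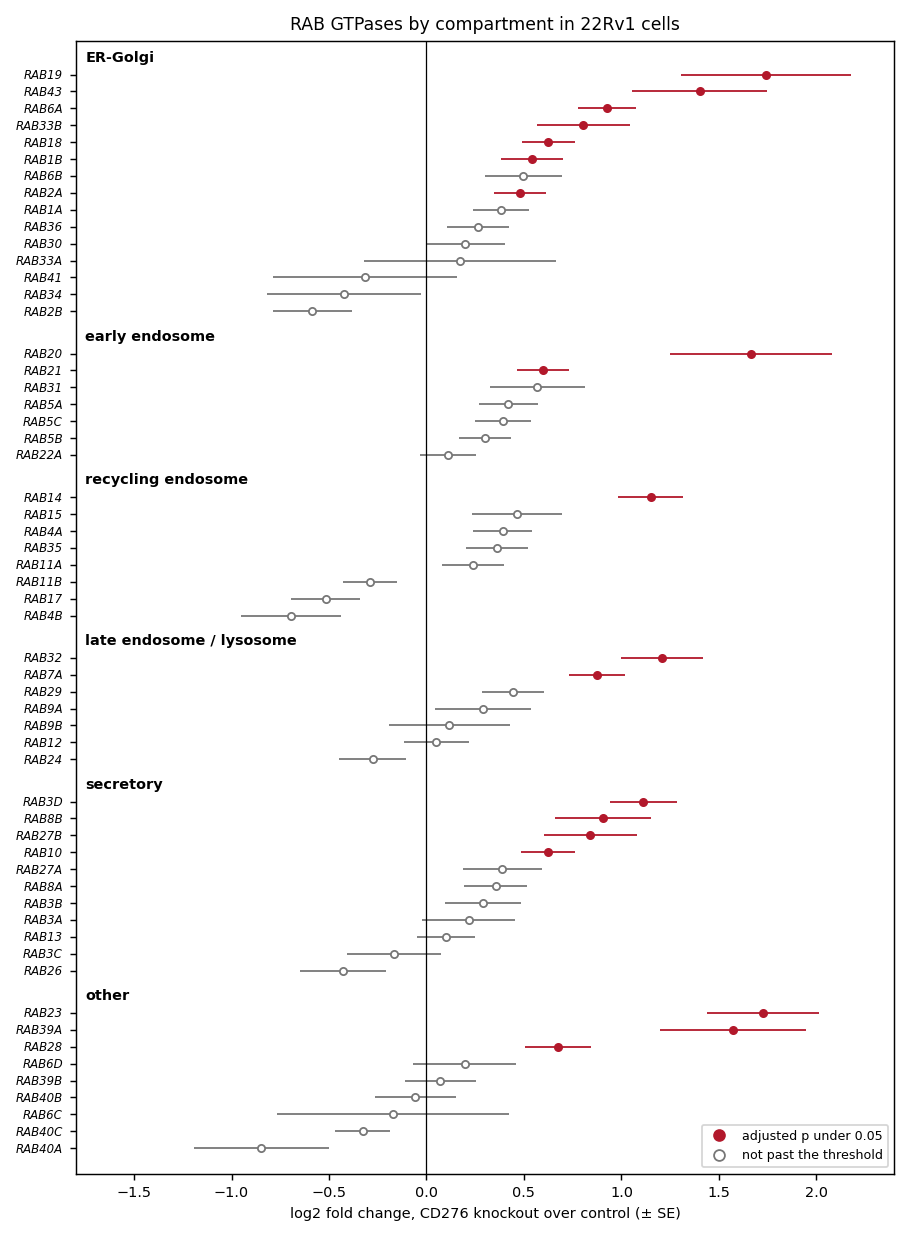
Log2 fold change of CD276 knockout over control for the 57 RAB GTPases tested, grouped by compartment; points are edgeR estimates, bars are SE, and filled points passed an adjusted p of 0.05. The 19 filled points all lie right of 0, between 0.48 and 1.74, while the 38 open points run from -0.85 to 0.57.

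The start regions of some risen members are shown to give the sequence context of genes that passed the test. RefSeq (GRCh38.p14) gave a start region for 50 of the 63 genes. For each compartment the risen member with the smallest p was taken. Of these, 4 are printed, as the 250 bases before the first listed start, 5′ to 3′ on the gene's strand. Those taken for the secretory list (RAB3D) and for other or unplaced roles (RAB23) are not printed. Capitals mark the GC box GGGCGG, bound by SP1-type factors, and the E-box CACGTG, bound by basic helix-loop-helix factors, on either strand. The regions are chr11:73761075-73761324, minus strand for RAB6A, chr9:121201870-121202119, minus strand for RAB14, chr3:128725933-128726182, plus strand for RAB7A and chr12:71754613-71754862, plus strand for RAB21. The RAB14 window lies inside the annotated gene span, before the start of shorter GENCODE transcripts. The RAB6A and RAB7A windows reach into the annotated gene spans at their downstream ends, and the GC box of RAB7A lies in that part. The RAB21 start matches that of no GENCODE transcript.
RAB6A: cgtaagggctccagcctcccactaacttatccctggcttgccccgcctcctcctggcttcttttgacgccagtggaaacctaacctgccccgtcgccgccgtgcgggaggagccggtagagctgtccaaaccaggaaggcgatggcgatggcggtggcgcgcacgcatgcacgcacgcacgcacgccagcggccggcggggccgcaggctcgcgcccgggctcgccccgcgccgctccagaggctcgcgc
RAB14: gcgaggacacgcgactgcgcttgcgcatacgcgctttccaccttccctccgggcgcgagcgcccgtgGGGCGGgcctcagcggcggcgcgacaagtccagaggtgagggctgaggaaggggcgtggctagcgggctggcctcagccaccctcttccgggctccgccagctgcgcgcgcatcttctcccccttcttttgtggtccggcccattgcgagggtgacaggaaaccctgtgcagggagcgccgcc
RAB7A: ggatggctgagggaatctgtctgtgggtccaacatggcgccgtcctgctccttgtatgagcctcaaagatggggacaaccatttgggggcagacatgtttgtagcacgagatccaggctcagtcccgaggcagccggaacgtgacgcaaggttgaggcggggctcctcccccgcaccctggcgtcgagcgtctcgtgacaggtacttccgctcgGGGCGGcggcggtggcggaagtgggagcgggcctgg
RAB21: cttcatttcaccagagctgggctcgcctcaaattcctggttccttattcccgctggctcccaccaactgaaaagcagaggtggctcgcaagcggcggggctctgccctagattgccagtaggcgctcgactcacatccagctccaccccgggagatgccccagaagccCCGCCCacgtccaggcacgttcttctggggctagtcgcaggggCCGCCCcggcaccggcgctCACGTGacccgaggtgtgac
These regions are GC-rich, with 71.6% G and C for RAB6A, 70.8% for RAB14, 64.8% for RAB7A and 64.8% for RAB21. RAB14 and RAB7A each hold 1 GC box, RAB21 holds 2 and an E-box, and RAB6A holds neither motif in this window. The GC box was found in 15 of the 16 risen RAB genes with an entry, in 23 of the 31 tested RAB genes that did not pass, and in 67% of the 10867 nuclear protein-coding genes tested with an entry. The E-box was in 1 of 16, 4 of 31 and 8.82%. The CCAAT box (CCAAT) was in 2 of 16, 11 of 31 and 35%, and the TATA box (TATAAA) in 0 of 16, 3 of 31 and 5.44%. Over all 27305 RefSeq start regions of this length the shares were 42.3% for the GC box, 6.49% for the E-box, 33% for the CCAAT box and 11.1% for the TATA box. A match describes letters, and binding was not measured.

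RABs of the ER and Golgi, which move new proteins from the ER through the Golgi stack and return escaped ones, held the most risen members. Here and for the compartments below, the background was the 12.2% of nuclear protein-coding genes that rose and the 11.2% that fell. The ER and Golgi list was also the largest. Of 15 tested 7 rose and 0 fell (9 higher and 1 lower by edgeR at an unadjusted p under 0.05, 0 lower by DESeq2), with a median log2 fold change of 0.48. RAB1B (chromosome 11, 66268533 to 66277492, plus strand, GRCh38), which drives ER-to-Golgi transport, had the highest level per exonic length of the whole family, at 219.8 CPM per kb in the knockouts and 151 in the controls. It had 435 and 447 normalised CPM in the knockouts, against 278 and 328 in the controls, so both knockouts lay above both controls by more than the gap between the controls (0.54 ± 0.16, edgeR adjusted p = 0.0403). Its call was lost under upper quartile scaling, with the replicate number as a block and in the fit to nuclear protein-coding genes alone. It shares 42.6% of its exonic bases with non-coding genes on the opposite strand, of which AP001107.1 did not pass the test and AP001107.2 had no counts.

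RAB6A (chromosome 11, 73675638 to 73761137, minus strand) had the smallest p of this group. It works within the Golgi and in traffic back to the ER. Its level was 150.4 and 156 normalised CPM in the knockouts, against 72.7 and 88.6 in the controls, a 1.897-fold rise (0.92 ± 0.15, adjusted p = 0.00644 by edgeR). RAB2A, which acts between the ER and the cis-Golgi, had 90.9 and 83.9 normalised CPM in the knockouts, against 62.3 and 63.1 in the controls (0.48 ± 0.13, edgeR adjusted p = 0.0339), with the 2 controls almost equal. That call was lost in the fit restricted to nuclear protein-coding genes and with offsets for GC content and length. RAB18, a regulator of the ER and of lipid droplets, had 75.4 and 81.6 normalised CPM in the knockouts, against 51.3 and 50.4 in the controls (0.63 ± 0.13, edgeR adjusted p = 0.0147).

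The remaining risen Golgi RABs were expressed at lower levels. RAB33B, which links the Golgi to the autophagy protein ATG16L1, had 14.9 and 17.3 normalised CPM in the knockouts, against 11.2 and 7.23 in the controls (0.81 ± 0.24, edgeR adjusted p = 0.0419). Its 2 controls differed widely, its call was lost in 3 of the 11 other settings that kept all libraries, and it lies near the threshold. RAB33B shares 13.8% of its exonic bases with AC097376.2 on the opposite strand. AC097376.2 had 10.4 and 10.9 normalised CPM in the knockouts, against 17.6 and 17.7 in the controls, and fell (-0.73 ± 0.17, edgeR adjusted p = 0.0212). RAB43, a RAB of Golgi organisation, had 3.28 and 3.25 normalised CPM in the knockouts, against 1.03 and 1.45 in the controls (1.40 ± 0.35, edgeR adjusted p = 0.0235). It shares 79.3% of its exonic bases with the read-through gene ISY1-RAB43 on the same strand, which had at most 5 counts in a library, so reads of the shared exons may be missing from or split between both. RAB19, a little-studied member placed at the Golgi, had 108 and 62 counts in the knockouts, against 16 and 24 in the controls (1.74 ± 0.44, edgeR adjusted p = 0.0244).

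The other Golgi RABs did not pass. RAB1A, the close paralog of RAB1B and the most abundant uncalled member of the group, had 244 and 239 normalised CPM in the knockouts, against 172 and 198 in the controls (0.38 ± 0.14, edgeR adjusted p = 0.0839). The groups do not overlap, but the controls differ from each other more than the knockouts do. It shares 22.9% of its exonic bases with CEP68 on the opposite strand, and CEP68 rose (0.79 ± 0.17, edgeR adjusted p = 0.016). RAB2B, a paralog of RAB2A, was the lowest in this group, with 14.5 and 11.02 normalised CPM in the knockouts, against 20.8 and 17.5 in the controls (-0.58 ± 0.20, edgeR adjusted p = 0.068). RAB2B passed as lower in 3 of the 11 other settings that kept all libraries, namely no filter on low counts, the replicate block, and GC and length offsets. Of the 8 members that did not pass, RAB2B, RAB34 and RAB41 had negative estimates.

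**Figure D2:**
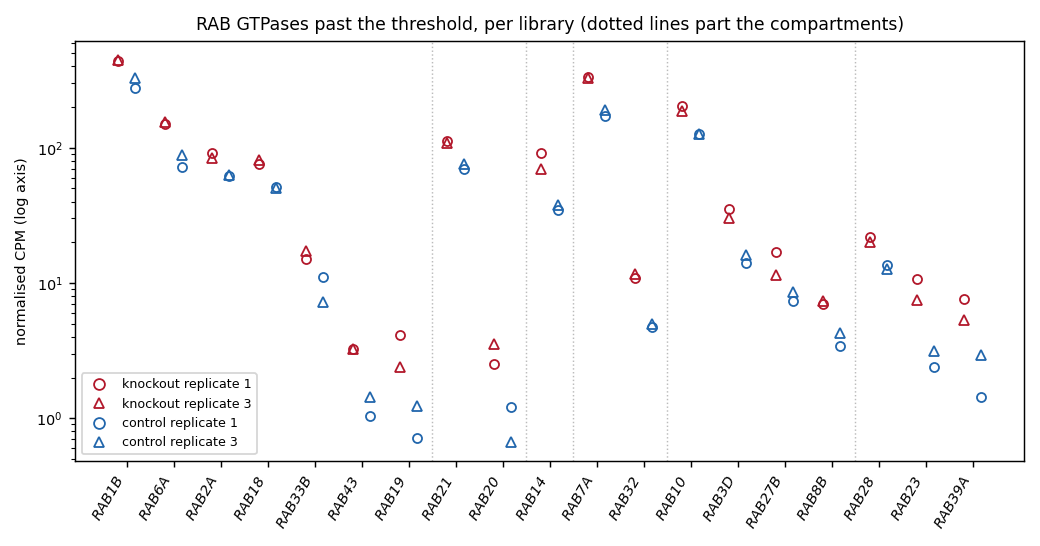
Normalised CPM (log axis) of the 19 RAB GTPases that passed the test, in each of the 4 libraries; red symbols left of each tick are knockouts, blue symbols right of it are controls, circles are replicate 1 and triangles replicate 3. For each gene both knockouts lie above both controls, from RAB1B at 435 and 447 in the knockouts to RAB20 at 2.51 and 3.52.

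RABs of early endosomes, the first stop of internalised receptors, all had positive estimates. Of 7 tested 2 rose and 0 fell (5 higher and 0 lower by edgeR at an unadjusted p under 0.05, 0 lower by DESeq2), and the median was 0.42. RAB21 (chromosome 12, 71754874 to 71800285, plus strand), which sorts integrins through early endosomes, had 112 and 108 normalised CPM in the knockouts, against 69.6 and 76.1 in the controls (0.60 ± 0.13, edgeR adjusted p = 0.0166). RAB20, of early endosomes and phagosomes, was far scarcer, with 66 and 91 counts in the knockouts, against 27 and 13 in the controls (1.66 ± 0.42, edgeR adjusted p = 0.024). In both genes the lower knockout exceeded the higher control.

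The 3 RAB5 genes, which encode the central regulators of early endosome fusion, each lay above both controls in both knockouts without passing the test. RAB5C, the most abundant of the group per exonic length, had 134 and 149 normalised CPM in the knockouts, against 100.2 and 115 in the controls (0.39 ± 0.14, edgeR adjusted p = 0.0809). RAB5A and RAB5B had log2 fold changes of 0.42 ± 0.15 and 0.30 ± 0.14, with edgeR adjusted p of 0.0782 and 0.138. RAB31, of traffic between the Golgi and endosomes, showed the largest positive estimate that did not pass, with 15.004 and 23.9 normalised CPM in the knockouts, against 14.3 and 11.9 in the controls (0.57 ± 0.24, edgeR adjusted p = 0.121). Its excess came mostly from knockout replicate 3.

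RABs of the recycling endosome, which return receptors to the surface, had estimates of both signs. Their share of risen members was near the 12.2% of nuclear protein-coding genes. Of 8 tested 1 rose and 0 fell (2 higher and 2 lower by edgeR at an unadjusted p under 0.05, 0 lower by DESeq2), with a median of 0.30. RAB14 (chromosome 9, 121178137 to 121223014, minus strand), which works between the Golgi and recycling endosomes, had the smallest p of the whole family. Its level was 91.6 and 70.01 normalised CPM in the knockouts, against 34.9 and 37.9 in the controls, so that even the lower knockout was well above both controls (1.15 ± 0.17, edgeR adjusted p = 0.00493). It shares no annotated exonic base with another gene.

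The lower members of this group did not pass. RAB17, an epithelial RAB of transcytosis, lay just outside the threshold with 53.2 and 75.8 normalised CPM in the knockouts, against 91.7 and 92.9 in the controls (-0.52 ± 0.18, edgeR adjusted p = 0.0667). The 2 controls agreed closely, while knockout replicate 1 was much lower than knockout replicate 3. RAB17 passed as lower in 4 of the 11 other settings that kept all libraries, namely no filter on low counts, the replicate block, nuclear protein-coding genes alone, and GC and length offsets. RAB4B, of fast recycling, had 5.56 and 6.96 normalised CPM in the knockouts, against 12.1 and 8.16 in the controls (-0.70 ± 0.26, edgeR adjusted p = 0.0821), and 36.8% of its exonic bases are shared with read-through genes on the same strand. RAB4B passed as lower with no filter on low counts and with the replicate block. RAB11B, a RAB of slow recycling, was second in the family per exonic length in the controls, and had 185 and 191 normalised CPM in the knockouts, against 217 and 242 in the controls (-0.29 ± 0.14, edgeR adjusted p = 0.164); its estimate changed sign, to 0.02, with offsets for GC content and length. Its paralog RAB11A had an estimate of 0.24 ± 0.16 (edgeR adjusted p = 0.298). RAB25, an epithelial member of the RAB11 group, had at most 11 counts in a library and was not tested.

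RABs of late endosomes and lysosomes, where cargo is degraded, had the largest relative rise in summed level. Their 9 genes together reached 465 and 487 normalised CPM in the knockouts, against 290.2 and 328 in the controls, a ratio of 1.54. Most of that was RAB7A (chromosome 3, 128726122 to 128814796, plus strand), the main RAB of late endosome and lysosome fusion. RAB7A had 333 and 329 normalised CPM in the knockouts, against 171 and 189.99 in the controls (0.87 ± 0.14, edgeR adjusted p = 0.00674), and the knockouts differed from each other by far less than from the controls. Its level per exonic length was second in the family in the knockouts, at 122 CPM per kb, and 66.5 in the controls, where RAB1B and RAB11B were above it.

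RAB32 was the other member to rise. It encodes a RAB of melanosomes and other lysosome-related organelles, also found on mitochondria, and had 10.8 and 11.6 normalised CPM in the knockouts, against 4.702 and 5.01 in the controls (1.21 ± 0.21, edgeR adjusted p = 0.00774). Neither RAB7A nor RAB32 shares an annotated exonic base with another gene. Of the 7 tested members 2 rose and 0 fell (3 higher and 0 lower by edgeR at an unadjusted p under 0.05, 0 lower by DESeq2), with a median of 0.29. RAB29, a RAB that recruits the kinase LRRK2, had 49.8 and 61.9 normalised CPM in the knockouts, against 38.9 and 43.2 in the controls (0.44 ± 0.16, edgeR adjusted p = 0.0766). RAB24, an atypical RAB linked to autophagy, had 32.9 and 37.5 normalised CPM in the knockouts, against 37.7 and 47.8 in the controls (-0.28 ± 0.17, edgeR adjusted p = 0.264). It shares 44.8% of its exonic bases with MXD3 on the same strand, and MXD3 fell (-0.50 ± 0.14, edgeR adjusted p = 0.0364). RAB7B and RAB38, the nearest relatives of RAB7A and RAB32, had at most 6 and 1 counts in a library and were not tested.

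**Figure D3:**
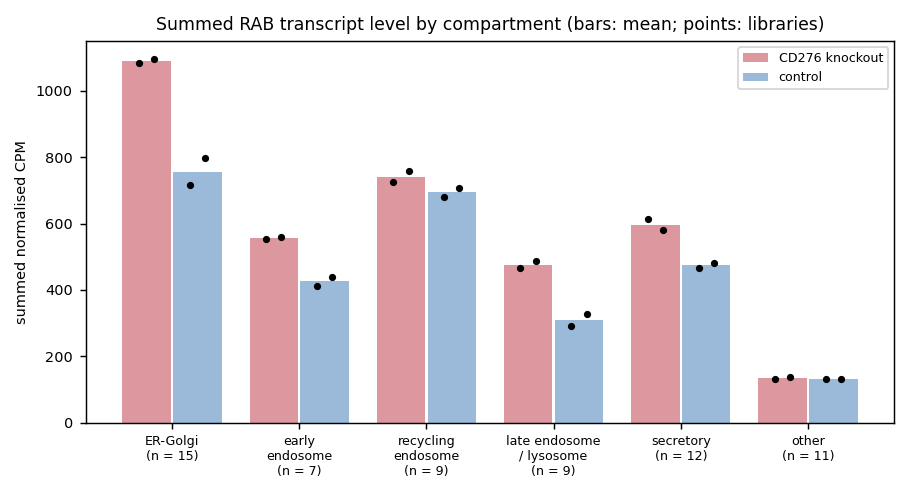
Summed normalised CPM of all RAB genes of each compartment; bars are means of the 2 libraries of a group and points are the libraries, with knockouts left of controls and n the number of genes summed. The ER and Golgi group stands at 1084 and 1097 in the knockouts and 715 and 799 in the controls, while the group with other roles is at 130.1 and 138 in the knockouts and 132 and 133 in the controls.

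Secretory RABs dock vesicles and granules at the plasma membrane. Of 11 tested 4 rose and 0 fell (4 higher and 0 lower by edgeR at an unadjusted p under 0.05, 0 lower by DESeq2), with a median of 0.35. RAB3D (chromosome 19, 11322046 to 11346270, minus strand), a RAB of secretory granules in exocrine cells, had 35.1 and 29.997 normalised CPM in the knockouts, against 14.1 and 16.005 in the controls, about 2-fold higher in both knockouts (1.11 ± 0.17, edgeR adjusted p = 0.00591). It shares 23.8% of its exonic sequence with opposite-strand genes, and the one of them that was tested, CCDC159, fell (-0.96 ± 0.19, edgeR adjusted p = 0.0106). On the same strand it shares 4.37% with other genes, of which TMEM205 had 230.4 and 325 normalised CPM in the knockouts, against 403 and 374 in the controls, far above RAB3D, and did not pass (-0.48 ± 0.19, edgeR adjusted p = 0.0954). RAB10, a RAB of exocytosis known for the delivery of GLUT4, had 205 and 186 normalised CPM in the knockouts, against 127 and 127 in the controls (0.62 ± 0.14, edgeR adjusted p = 0.0157), with near-equal controls.

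RAB27B, which docks granules and exosome-bearing endosomes, had 16.9 and 11.5 normalised CPM in the knockouts, against 7.39 and 8.52 in the controls (0.84 ± 0.24, edgeR adjusted p = 0.036), and knockout replicate 1 was the higher one. RAB8B, of exocytosis and cilia, had 7.05 and 7.34 normalised CPM in the knockouts, against 3.403 and 4.29 in the controls (0.91 ± 0.25, edgeR adjusted p = 0.0323). The other secretory RABs did not pass. RAB13, of tight junction traffic and the most abundant uncalled secretory member, overlapped between the groups, with 195 and 164 normalised CPM in the knockouts, against 159.6 and 175 in the controls (0.10 ± 0.15, edgeR adjusted p = 0.654). RAB26, of synaptic and secretory vesicles, had 18.7 and 30.04 normalised CPM in the knockouts, against 33.3 and 32.3 in the controls (-0.43 ± 0.22, edgeR adjusted p = 0.19), where only knockout replicate 1 was far below the controls. RAB37 had at most 9 counts in a library and was not tested.

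Among RABs with other or unplaced roles, 3 of 9 tested rose and 0 fell (3 higher and 2 lower by edgeR at an unadjusted p under 0.05, 0 lower by DESeq2), with a median of 0.07. RAB23, a ciliary RAB that restrains Hedgehog signalling, had 10.7 and 7.54 normalised CPM in the knockouts, against 2.37 and 3.15 in the controls, a 3.31-fold rise (1.73 ± 0.29, edgeR adjusted p = 0.00679). It shares 57.7% of its exonic bases with BAG2 on the opposite strand; BAG2 had 12.4 and 13.9 normalised CPM in the knockouts, against 10.2 and 11.2 in the controls and did not pass (0.29 ± 0.19, edgeR adjusted p = 0.283). RAB39A, of phagosomes and endosomes, had 199 and 138 counts in the knockouts, against 32 and 57 in the controls (1.57 ± 0.37, edgeR adjusted p = 0.0207). RAB28, a ciliary RAB needed by cone photoreceptors, had 21.7 and 19.9 normalised CPM in the knockouts, against 13.5 and 12.6 in the controls (0.67 ± 0.17, edgeR adjusted p = 0.0252).

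The RAB40 genes, whose products carry a SOCS box and join ubiquitin ligases, included no gene that passed. RAB40C had 57.96 and 67.8 normalised CPM in the knockouts, against 80.2 and 77.6 in the controls (-0.33 ± 0.14, edgeR adjusted p = 0.123). RAB40A and RAB40B had estimates of -0.85 ± 0.34 and -0.06 ± 0.21, with edgeR adjusted p of 0.106 and 0.867. RAB42 and RAB44 had at most 4 and 2 counts in a library and were not tested. RAB6C and RAB6D are close copies of RAB6A, and reads of the 3 genes could be split between them; RAB6C had at most 12 counts and RAB6D at most 133 in a library, against 4025 for RAB6A.

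Of the 38 tested RAB genes that did not pass, both knockouts lay above both controls for 17 and below them for 8. The groups overlapped for the other 13. Over all genes tested, passing or not, the shares were 31.8% above and 34.1% below. Over nuclear protein-coding genes, passing or not, they were 36% above and 30.5% below. RAB3A, the best-known RAB of synaptic vesicles, shows how far the knockouts could differ, with 32.6 and 56.7 normalised CPM in the knockouts, against 38.9 and 37.9 in the controls (0.22 ± 0.24, edgeR adjusted p = 0.542). RAB35, of endosomal recycling, and RAB8A, of exocytosis, both lay above the controls, at 0.36 ± 0.16 and 0.35 ± 0.16 (edgeR adjusted p = 0.133 and 0.141). RAB27A, the paralog of RAB27B, had an estimate of 0.39 ± 0.20 (edgeR adjusted p = 0.192) and RAB6B, the paralog of RAB6A, one of 0.50 ± 0.20 (edgeR adjusted p = 0.0989). RAB22A, RAB30, RAB36, RAB12, RAB15, RAB9A, RAB9B, RAB3B, RAB3C, RAB33A and RAB39B had estimates between -0.17 (RAB3C) and 0.47 (RAB15).

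Several close paralogs did not move alike. The ratio of their counts within a library does not depend on the scaling between libraries, and these 17 pairs were chosen after values were seen, so the ratios are descriptions without a test. RAB2A had 6.25 and 7.62 counts per RAB2B count in the knockouts, against 2.99 and 3.6 in the controls. RAB4A had 9.62 and 9.1 per RAB4B count in the knockouts, against 3.86 and 5.19 in the controls. RAB39A had 0.614 and 0.411 per RAB39B count in the knockouts, against 0.115 and 0.252 in the controls. In each of these pairs the first gene took a larger part in both knockouts than in either control. The RAB11A to RAB11B ratio was 0.954 and 1.18 in the knockouts, against 0.797 and 0.689 in the controls. RAB1B had 1.79 and 1.87 counts per RAB1A count in the knockouts, against 1.62 and 1.66 in the controls, a smaller shift in which the groups also did not overlap. RAB5A had 0.392 and 0.369 counts per RAB5C count in the knockouts, against 0.362 and 0.381 in the controls, where the groups overlapped. Over the 17 pairs both knockouts lay above both controls for 8 and below them for 2, and the groups overlapped for 7. In every pair with a risen member that member was written first. The direction of these counts therefore follows in part from the calls and is not a separate result. The 2 lower ratios were those of RAB40C and RAB40A to RAB40B. Some pairs share a gene, the ratios were not adjusted for GC content, and no share over other gene pairs was computed.

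**Figure D4:**
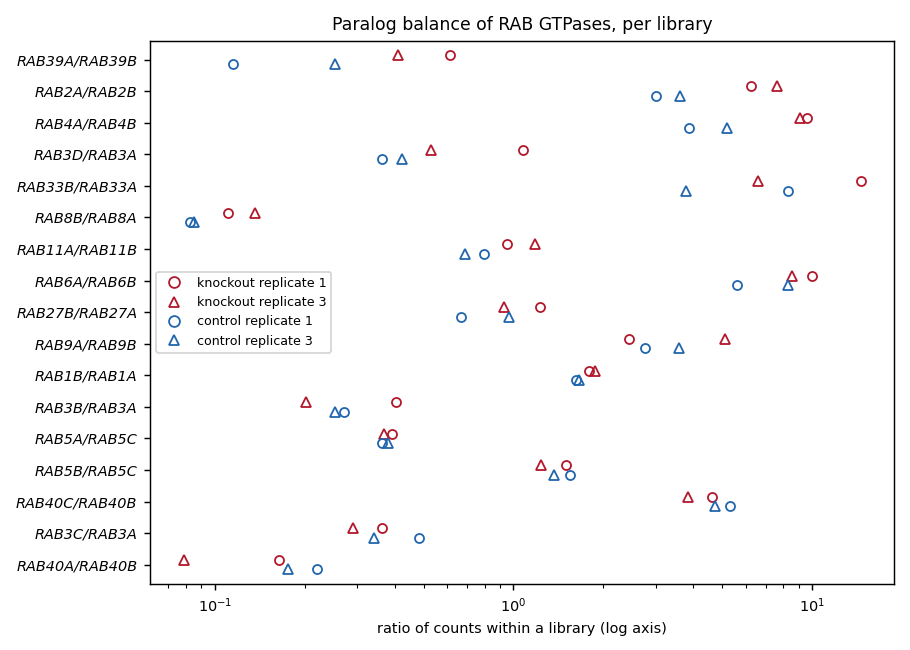
Ratio of counts (log axis) for 17 pairs of RAB paralogs within each library, ordered by the mean log2 difference between the groups; red symbols, drawn above, are knockouts, blue symbols are controls, circles are replicate 1 and triangles replicate 3. RAB39A/RAB39B, RAB2A/RAB2B and RAB4A/RAB4B are separated between the groups, while RAB5A/RAB5C overlaps.

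Transcript base composition moved with the fold changes across the whole table. Nuclear protein-coding genes under 40% GC rose in 17.1% of cases with a median log2 fold change of 0.19, and those over 60% GC in 2.48% with a median of -0.23. The risen RAB genes had a median GC content of 41.8%, the tested RAB genes that did not pass 45.9%, and nuclear protein-coding genes 48.7%. Of the 16 RAB genes under 40% GC 8 rose, with a median of 0.44. Between 40% and 45% GC 4 of 13 rose, with medians of 0.29 for RAB genes and 0.18 for protein-coding genes, of which 17% rose. Between 45% and 50% GC 1 of 6 rose, with medians of 0.20 for RAB genes and 0.16 for protein-coding genes, of which 16.4% rose. Between 50% and 55% GC 3 of 8 rose, with medians of 0.48 for RAB genes and 0.07 for protein-coding genes, of which 12.2% rose. Between 55% and 60% GC 1 of 8 rose, with medians of 0.24 for RAB genes and -0.05 for protein-coding genes, of which 6.4% rose. Of the 6 over 60% GC 2 rose (RAB1B and RAB43), and the median was -0.31. With offsets that remove the trend of GC content and exonic length within each library, 18 RAB genes rose, 17 of them among the 19, and 2 fell (RAB17 and RAB2B); the family median was then 0.31, beside 0.07 over nuclear protein-coding genes.

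**Figure D5:**
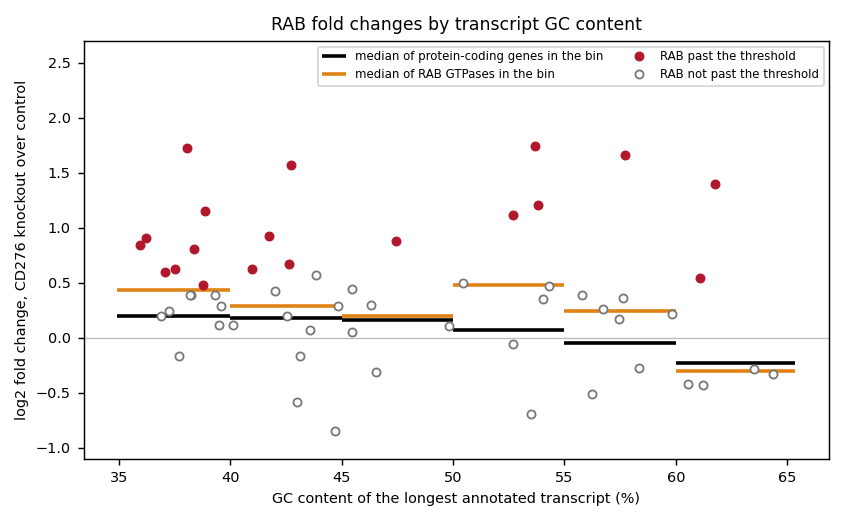
Log2 fold change of CD276 knockout over control against the GC content of the longest annotated transcript for the 57 RAB GTPases tested; filled red points passed the test, and horizontal lines are medians of RAB genes (orange) and of nuclear protein-coding genes (black) within GC bins. The black line runs from 0.19 under 40% GC to -0.23 over 60% GC, and the orange line lies above it in each bin except the one over 60% GC.

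The genes that load, switch and read RABs did not share the one-sided pattern. Of 121 such genes, listed by class, 118 were tested, of which 17 rose, 12 fell and 89 did not pass, with a median log2 fold change of 0.12. That is 14.4% higher and 10.2% lower, near the 12.2% and 11.2% of nuclear protein-coding genes. Of the 8 genes of prenylation and GDP dissociation inhibition 2 rose and 0 fell (0 lower by DESeq2, 1 lower by edgeR at an unadjusted p under 0.05). GDI2, which extracts GDP-bound RABs from membranes, had 232 and 212 normalised CPM in the knockouts, against 114 and 135 in the controls (0.83 ± 0.15, edgeR adjusted p = 0.00827). CHML, an escort protein that presents RABs for prenylation, had 26.8 and 26.3 normalised CPM in the knockouts, against 17.6 and 16.7 in the controls (0.63 ± 0.16, edgeR adjusted p = 0.0249). The transferase subunits RABGGTA and RABGGTB did not pass, at -0.37 ± 0.14 and -0.29 ± 0.15.

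Among 34 exchange factors tested 4 rose and 1 fell, beside 12.2% higher and 11.2% lower among nuclear protein-coding genes. DENND1A, an exchange factor for RAB35, DENND5A, known for its links to RAB6 and RAB39, and DENND6A, an exchange factor for RAB14, rose by 0.70 ± 0.15, 0.66 ± 0.14 and 0.64 ± 0.17 on the log2 scale (edgeR adjusted p = 0.0142, 0.0148 and 0.0292). DENND6B, the paralog of DENND6A, fell, with 19.5 and 21.1 normalised CPM in the knockouts, against 37.8 and 31.4 in the controls (-0.77 ± 0.17, edgeR adjusted p = 0.0153). Of 33 GTPase-activating proteins 5 rose and 3 fell, beside the same 12.2% and 11.2%. TBC1D14, which binds RAB11 and limits autophagy, had 40.4 and 25.98 normalised CPM in the knockouts, against 8.91 and 10.3 in the controls (1.79 ± 0.24, edgeR adjusted p = 0.0038), and it shares 41.1% of its exonic sequence with opposite-strand genes. TBC1D16, an activating protein for RAB4A, and TBC1D22B rose by 0.92 ± 0.14 and 0.76 ± 0.18 on the log2 scale (edgeR adjusted p = 0.00582 and 0.0216). SGSM2, known for acting on RAB32 and RAB38, TBC1D17 and TBC1D8 fell, with log2 fold changes of -0.91 ± 0.15, -0.65 ± 0.16 and -0.54 ± 0.15 (edgeR adjusted p = 0.00644, 0.0236 and 0.0337).

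Of 40 effectors tested 6 rose and 8 fell, beside 12.2% higher and 11.2% lower among nuclear protein-coding genes. RAB11FIP1 and RAB11FIP4, which bind RAB11, and OSBPL1A, a sterol sensor that binds RAB7, rose by 1.94 ± 0.30, 0.67 ± 0.15 and 0.92 ± 0.17 on the log2 scale (edgeR adjusted p = 0.00618, 0.0161 and 0.00969). RAB11FIP1 shares 24.8% of its exonic sequence with an opposite-strand gene. GCC2, a golgin that binds Golgi RABs, MICALL2, an effector of RAB13, and EXPH5, an effector of RAB27, fell, at -0.78 ± 0.16, -0.80 ± 0.18 and -0.78 ± 0.18 (edgeR adjusted p = 0.0118, 0.0165 and 0.0198). The RAB kinases LRRK1 and LRRK2 and the RAB phosphatase PPM1H did not pass, and of these 3 genes edgeR gave 1 higher and 0 lower at an unadjusted p under 0.05.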

How the data were processed

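The authors deposited raw counts per gene for 4 libraries in 1 table. The submitters' processing notes name the GRCh38 build, Trimmomatic 0.36, STAR 2.5.2b, featureCounts and Subread 1.5.2. How strand and multi-mapping reads were handled, and which annotation was counted, is not given in the sources used. The 486 rows without a name (0.0191% to 0.029% of a library) were left out, and 0 columns were unused. In R 4.3.3, genes passing filterByExpr were scaled by TMM; edgeR 4.0.16 tested the group term alone (glmQLFit, robust=TRUE), with 2 residual degrees of freedom. limma 3.58.1 and DESeq2 1.42.0 served as alternatives. SE is the log2 fold change divided by the square root of F. Gene positions, types, exonic overlap and GC content came from GENCODE on GRCh38, 1-based. Levels between genes are compared per kb of exonic union.

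Members, compartment lists and regulator lists were chosen with earlier results of these data known. Named are the genes of the family that passed, the most abundant and the most shifted of each compartment that did not, those next to the threshold, and up to 3 higher and 3 lower regulators per class with the smallest p; RAB5A, RAB5B, RAB11A, RAB40A, RAB40B, RAB6C, RAB6D, RAB3A, RAB35, RAB8A, other paralogs, the remaining members that did not pass, overlapping genes, the transferase subunits and the RAB kinases were named after their values were seen. Next to the threshold stood RAB1B and RAB33B inside it (adjusted p = 0.0403 and 0.0419) and RAB17 and RAB2B outside it (0.0667 and 0.068). On counts simulated for this comparison, 200 genes among 17608 to 17649 were changed. Of these, 4.5% of 1.5-fold, 61% of 2-fold and 94.5% of 4-fold changes were recovered, with 0, 7 and 13 false calls. The simulation gave every gene 1 common dispersion and changed fewer genes than the 1780 that rose and 2331 that fell. These shares may therefore not hold for the measured counts. Replicate numbers 1 and 3 occur in both groups; the deviations of same-numbered libraries correlated at r = -0.0152 across genes, so the numbers were not taken as pairs.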

Additional observations from a re-analysis of the deposited data

How the results depend on the processing

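The number of RAB genes that rose was 19 in the reported fit and lay between 16 and 24 under RLE, upper quartile and total-count scaling, both other filters, DESeq2, limma voom, robust=FALSE, the replicate block, the fit to nuclear protein-coding genes and the GC and length offsets; 16 of the 19 kept their call in all 11 of these. It ranged from 0 to 33 when 1 library was left out. The number that fell was 0, against 3 with no filter on low counts, 3 with the replicate number as a block, 1 among nuclear protein-coding genes alone and 2 with GC and length offsets, and 0 to 6 with 1 library left out; the cause was not tested. The replicate block called 18 RAB genes higher. Regulators and effectors that rose numbered 17, and 2 to 46 with 1 library left out; those that fell numbered 12, 6 under total-count scaling, and 0 to 29 with 1 library left out. CD276 ranged from -1.13 to -0.92 on the log2 scale with 1 library left out and missed the threshold without control replicate 3 (-0.92, edgeR adjusted p = 0.0812). Of the 57 tested RAB genes, 10 that had not passed changed sign in some setting: RAB11B, at 0.0185, RAB39B, at -0.0505, and RAB9B, at -0.0142, with GC and length offsets, RAB12, at -0.00695, among nuclear protein-coding genes alone, and RAB40B, at 0.0432, under total-count scaling. With 1 library left out, sign changes gave ranges of -0.0237 to 0.195 for RAB12, -0.0161 to 0.289 for RAB13, -0.583 to 0.712 for RAB33A, -0.17 to 0.573 for RAB3A, -0.406 to 0.127 for RAB3C, -0.254 to 0.18 for RAB40B, -0.431 to 0.111 for RAB6C and -0.129 to 0.403 for RAB9B. Total-count scaling shifted the median of all genes from -0.005 to 0.10. The 6 untested RAB genes had too few counts for a test, and whether depth or absent expression lies behind this was not tested. Changes under 2-fold, and some larger ones, may go undetected.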
